A study of Mus musculus with 6 samples.

Results

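The genes described are Lef1, its sister transcription factors Tcf7, Tcf7l1 and Tcf7l2, and the Groucho family of corepressors that these factors recruit, Tle1, Tle2, Tle3, Tle4 and the short relative Aes. The members were taken by symbol from the gene table that the authors deposited: 9 of its 36699 rows name one of them, and 0 of the 9 are rows that join several genes. Polyadenylated RNA was sequenced from day 3 embryoid bodies, the floating aggregates in which mouse embryonic stem (ES) cells begin to differentiate. The plus_Dox group (3 libraries, numbered 1, 2 and 3) received doxycycline (Dox) for the last 24 h before harvest, and the minus_Dox group (3 libraries, numbered 1, 3 and 4) received none. Both groups were A2Lox.cre ES cells, a line built to carry a Dox-inducible transgene, and both carried a transgene for Flag-tagged Lef1. In both, the ES cells had been maintained on primary fibroblasts from FVB mouse embryos, which were stripped off before aggregation. The groups differ by the drug as well as by the induced factor, and the effects of these cannot be told apart. Whether the libraries of a group came from separate cultures is not in the labels, so the spread between libraries that enters the p-values may be technical. What else enters them, such as the division of reads between overlapping genes, was not tested.

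Tcf/Lef factors bind DNA through a high-mobility-group (HMG) box and have little activity alone. When Wnt signalling is on, beta-catenin binds their N-terminal end and genes at their sites are switched on; without it, Groucho/TLE proteins bound to the same factors keep those genes off. Tle1 to Tle4 encode full-length corepressors with an N-terminal Q domain, through which they form oligomers, and a C-terminal WD40 propeller that binds partner proteins. Aes keeps the N-terminal part but lacks the propeller, and it is known as a modulator of the full-length proteins. In mouse ES cells Tcf7l1 is best known as a repressor that limits self-renewal genes, whereas Tcf7 and Lef1 are more often described as activators with beta-catenin.

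The likeness of the members bears on how sequencing reads can be assigned to them, and their shared coding sequence is therefore shown first. These stretches are in-frame, 90 nt long, read 5′ to 3′ on the coding strand from GENCODE vM21 (GRCm38), with capitals for bases that are identical in all members of the family. In the Tcf/Lef factors the stretch lies inside the HMG box, within a single exon of each gene (exon 8 of Lef1 at chr3:131194689-131194778 on the plus strand, exon 7 of Tcf7 at chr11:52256958-52257047 on the minus strand, exon 10 of Tcf7l1 at chr6:72631224-72631313 on the minus strand and exon 9 of Tcf7l2 at chr19:55918946-55919035 on the plus strand).
Lef1: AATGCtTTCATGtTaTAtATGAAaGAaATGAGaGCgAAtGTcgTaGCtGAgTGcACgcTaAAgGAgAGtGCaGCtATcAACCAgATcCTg
Tcf7: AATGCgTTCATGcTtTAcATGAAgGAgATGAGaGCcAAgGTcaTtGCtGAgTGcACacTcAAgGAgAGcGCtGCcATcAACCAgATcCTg
Tcf7l1: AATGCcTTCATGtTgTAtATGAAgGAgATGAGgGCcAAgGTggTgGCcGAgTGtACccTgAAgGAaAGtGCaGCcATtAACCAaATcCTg
Tcf7l2: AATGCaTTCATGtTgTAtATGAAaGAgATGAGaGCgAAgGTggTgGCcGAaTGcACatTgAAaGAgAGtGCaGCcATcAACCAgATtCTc
All 4 genes share 63 of the 90 bases (70.0%). Against Lef1 alone, Tcf7 matched at 75 bases, Tcf7l2 at 75 and Tcf7l1 at 73. Over the transcript with the longest coding sequence of each gene, untranslated ends included, the longest run of identical bases in any of the 6 pairs of Tcf/Lef factors was between 14 and 23 nt, and 0 pairs shared a stretch of 36 nt.

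For the corepressors the stretch comes from the Q domain and spans the junction of exons 2 and 3.
Tle1: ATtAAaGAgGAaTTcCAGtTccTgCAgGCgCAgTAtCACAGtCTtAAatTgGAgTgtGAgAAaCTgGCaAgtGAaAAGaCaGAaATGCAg
Tle2: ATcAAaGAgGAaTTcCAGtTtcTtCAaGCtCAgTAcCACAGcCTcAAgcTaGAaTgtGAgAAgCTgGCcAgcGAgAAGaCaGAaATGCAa
Tle3: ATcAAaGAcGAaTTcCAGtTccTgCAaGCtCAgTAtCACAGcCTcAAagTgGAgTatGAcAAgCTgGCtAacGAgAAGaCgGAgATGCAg
Tle4: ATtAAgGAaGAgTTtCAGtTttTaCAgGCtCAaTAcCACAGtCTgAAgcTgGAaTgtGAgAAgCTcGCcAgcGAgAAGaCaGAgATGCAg
Aes: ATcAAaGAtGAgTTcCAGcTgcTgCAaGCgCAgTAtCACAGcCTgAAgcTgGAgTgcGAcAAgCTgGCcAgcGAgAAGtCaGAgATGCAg
These 5 genes share 58 of 90 bases (64.4%). Among their 10 pairs of transcripts, 1 pair shared a stretch of at least 36 nt, namely Tle1 and Tle4 with a run of 68 identical bases in exon 15 of each (chr4:72126252-72126319 in Tle1 and chr19:14454805-14454872 in Tle4, both on the minus strand of GRCm38).
Shared run: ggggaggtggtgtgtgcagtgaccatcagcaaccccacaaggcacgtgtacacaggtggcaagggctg
The sources used here give neither the length of the sequenced reads nor how the authors divided reads that match both genes, so the values of Tle1 and Tle4 are uncertain to the extent of this run.

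In the authors' deposited table each gene has 1 FPKM for plus_Dox and 1 for minus_Dox (fragments scaled to transcript length and to the size of the library), with a log2 fold of plus_Dox over minus_Dox and a q-value. No value of a single library is given, so FPKM values carry no SD, and the depth of the libraries is unknown. The standard error (SE) of a log2 fold was taken as the absolute fold over the absolute deposited test statistic, and a gene was called changed at a q of at most 0.05. Of the 9 members 8 were tested by the authors, and 3 passed (37.5%), against 12.2% of all 18114 tested rows and 18.9% of the 8530 tested rows that reached 5 FPKM in either group. Lef1 and Aes rose, beside 8.98% of all tested rows, and Tle4 fell, beside 3.22%. The other 5 tested members did not pass, with q between 0.43 and 0.93. Lef1 is the gene that the design induces, and without it 2 of 7 tested members passed. By sign alone, the fold was positive in 6 members and negative in 2, and over all 17830 tested rows with a finite fold it was positive in 65.1%. The median log2 fold was 0.33 over the 8 tested members and 0.28 without Lef1, beside 0.20 over all those rows.

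**Figure D1:**
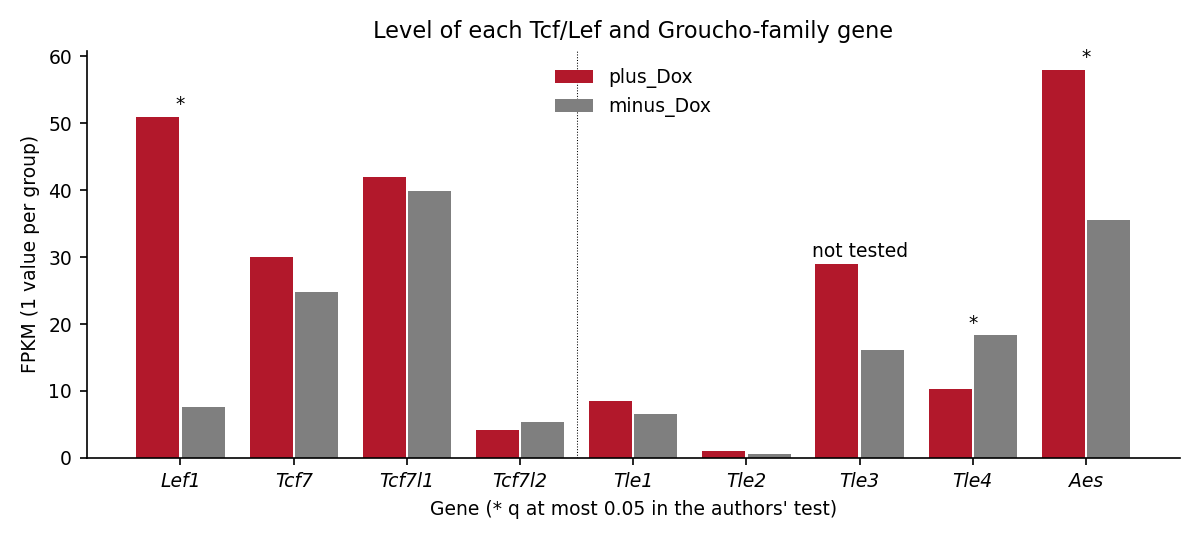
FPKM of the 9 members in plus_Dox (left of each pair) and minus_Dox, 1 authors' value per group and no error bar because the table holds no single libraries. Lef1 stands at 51.0 FPKM in plus_Dox against 7.56 FPKM in minus_Dox, and Tle4 is the called member that is lower in plus_Dox (10.3 against 18.3 FPKM).

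In the authors' deposited table Lef1, the induced factor, had 51.0 FPKM in plus_Dox and 7.56 FPKM in minus_Dox. Its log2 fold was 2.75 (SE 0.19), a ratio of 6.75 with a 95% interval of 5.21 to 8.74, and its q is listed as 0. This placed Lef1 at rank 10 by log2 fold among the 8486 tested rows that had a finite fold and reached 5 FPKM in either group. Lef1 was thus already present without Dox, at a level above 62.8% of all tested rows, and with Dox it stood above 89.3% of them. Lef1 lies at chr3:130813388-130927274 in the coordinates of the table (mm9), and no other row overlaps it. The transgene encodes the same protein, so reads from it and from the chromosomal gene cannot be told apart in a gene-level value. Hprt, beside which A2Lox.cre takes up its transgene on the X chromosome, had 40.4 FPKM in plus_Dox and 2.82 FPKM in minus_Dox (by the authors' deposited table, log2 fold 3.84, SE 0.19). The part of the transgene's own transcript in that value was not tested.

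The sister factors were at the following levels. Tcf7l1, the main Tcf factor of mouse ES cells and chiefly a repressor there, had 42.0 FPKM in plus_Dox and 39.9 FPKM in minus_Dox in the authors' deposited table, with a log2 fold of 0.07 (SE 0.17, q = 0.92). The 95% interval of its ratio, 0.833 to 1.33, was the narrowest among the members that did not pass. Tcf7, an activator and a partner of Lef1 in T cell development, had 30.1 FPKM in plus_Dox and 24.8 FPKM in minus_Dox. Its log2 fold was 0.28 with an SE of 0.68 (q = 0.93 in the authors' deposited table), and its interval of 0.479 to 3.07 leaves room for a fall or a rise of more than 2-fold. Tcf7l2, the Tcf factor best known from the intestinal epithelium, was the lowest of the 4, with 4.16 FPKM in plus_Dox and 5.33 FPKM in minus_Dox (log2 fold -0.36, SE 0.31, q = 0.58, ratio interval 0.510 to 1.19). None of these 3 differences passed, which does not show that the levels were alike.

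Because FPKM is per length, the levels of the 4 factors can be added and their shares compared. The Tcf/Lef sum was 127 FPKM in plus_Dox and 77.6 FPKM in minus_Dox, a ratio of 1.64. Lef1 made up 40.1% of that sum in plus_Dox and 9.74% in minus_Dox. Tcf7l1 made up 33.0% in plus_Dox and 51.4% in minus_Dox, Tcf7 made up 23.6% in plus_Dox and 32.0% in minus_Dox, and Tcf7l2 made up 3.27% in plus_Dox and 6.87% in minus_Dox. The order of the levels was therefore Lef1, Tcf7l1, Tcf7, Tcf7l2 in plus_Dox, and Tcf7l1, Tcf7, Lef1, Tcf7l2 in minus_Dox. The level of Lef1 was 1.22 times that of Tcf7l1 in plus_Dox and 0.189 times in minus_Dox. Without Lef1 the other factors summed to 76.2 FPKM in plus_Dox and 70.1 FPKM in minus_Dox, a ratio of 1.09, with Tcf7l1 at 55.1% in plus_Dox and 57.0% in minus_Dox. These shares are descriptions of group values. Neighbours in the order were not tested against each other, since no spread over libraries is given.

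**Figure D2:**
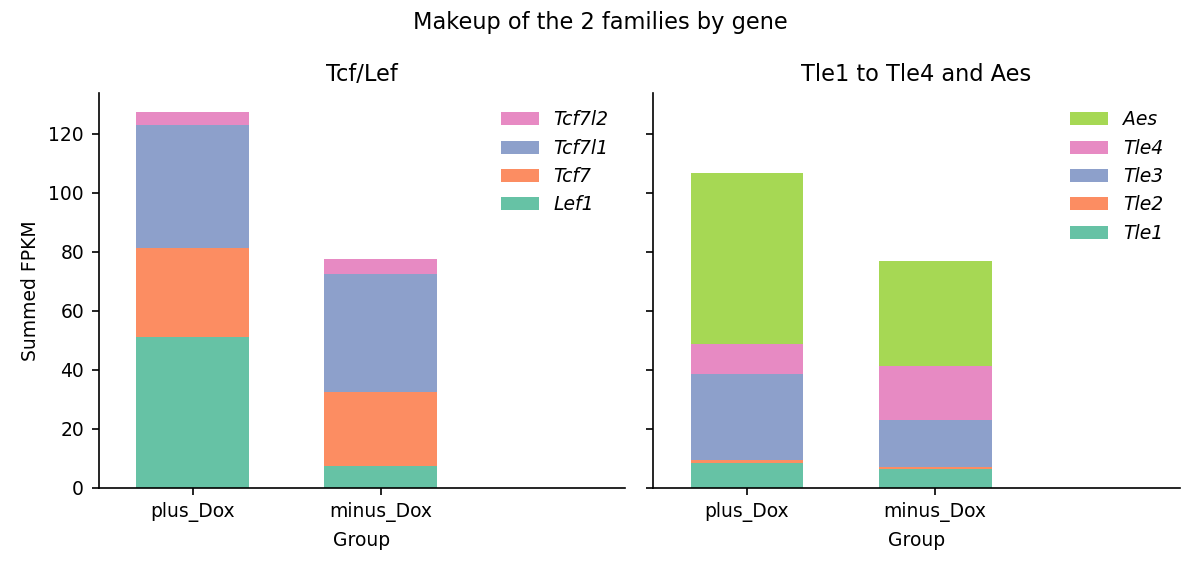
Summed FPKM of the Tcf/Lef factors and of the Groucho family (Tle1 to Tle4 and Aes), divided by gene, with plus_Dox left of minus_Dox and 1 authors' value per gene and group. The Lef1 segment is 40.1% of the Tcf/Lef bar in plus_Dox and 9.74% in minus_Dox, and the Tle4 segment is smaller in plus_Dox than in minus_Dox.

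Among the full-length corepressors the direction was mixed. Tle4, a Groucho protein also known from B cell and forebrain development, had 10.3 FPKM in plus_Dox and 18.3 FPKM in minus_Dox in the authors' deposited table. It fell, with a log2 fold of -0.83 (SE 0.19, q = 0.00051) and a ratio of 0.562 (95% interval 0.434 to 0.728). Tle4 lies at chr19:14522561-14672473 (mm9), and the table has no other row within 100 kb of it. Tle1, which lies on chromosome 4 and shares the 68-base run with Tle4, had 8.52 FPKM in plus_Dox and 6.50 FPKM in minus_Dox (log2 fold 0.39, SE 0.33, q = 0.56, ratio interval 0.837 to 2.06), so its value pointed the other way but did not pass. Tle2, the lowest of the 9 members in both groups, had 0.997 FPKM in plus_Dox and 0.520 FPKM in minus_Dox (log2 fold 0.94, SE 0.65, q = 0.43, ratio interval 0.793 to 4.63). Tle3 had 29.0 FPKM in plus_Dox and 16.1 FPKM in minus_Dox, a ratio of 1.80, but the authors' deposited table marks its test as failed, with the fold listed as 0 and p as 1, as in all 368 rows marked so. No statement on its change can be made from that table.

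In the authors' deposited table Aes, the short relative without the WD40 propeller, had 57.9 FPKM in plus_Dox and 35.5 FPKM in minus_Dox. It rose, with a log2 fold of 0.71 (SE 0.18, q = 0.0017) and a ratio of 1.63 (95% interval 1.28 to 2.07). Aes was the most abundant of the 9 members in plus_Dox and the second after Tcf7l1 in minus_Dox. Its coding sequence is 591 nt, beside 2301 to 2349 nt for Tle1 to Tle4, and the longest identical run between its transcript and that of Tle4 was 12 nt. Aes was not called once a trend of the folds on transcript composition was removed (0.04).

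The 4 full-length corepressors summed to 48.8 FPKM in plus_Dox and 41.4 FPKM in minus_Dox (ratio 1.18). Tle3 made up 59.4% of that sum in plus_Dox and 38.9% in minus_Dox, and Tle4 made up 21.1% in plus_Dox and 44.2% in minus_Dox. Tle1 made up 17.5% in plus_Dox and 15.7% in minus_Dox, and Tle2 made up 2.04% in plus_Dox and 1.26% in minus_Dox. Tle3 thus had 2.82 times the level of Tle4 in plus_Dox and 0.880 times in minus_Dox. That shift rests on the untested Tle3 value, and without Tle3 the sum was 19.8 FPKM in plus_Dox and 25.3 FPKM in minus_Dox (ratio 0.782). The level of Aes was 1.19 times the Tle1 to Tle4 sum in plus_Dox and 0.858 times in minus_Dox. The level of Lef1 was 1.05 times that same sum in plus_Dox and 0.183 times in minus_Dox.

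**Figure D3:**
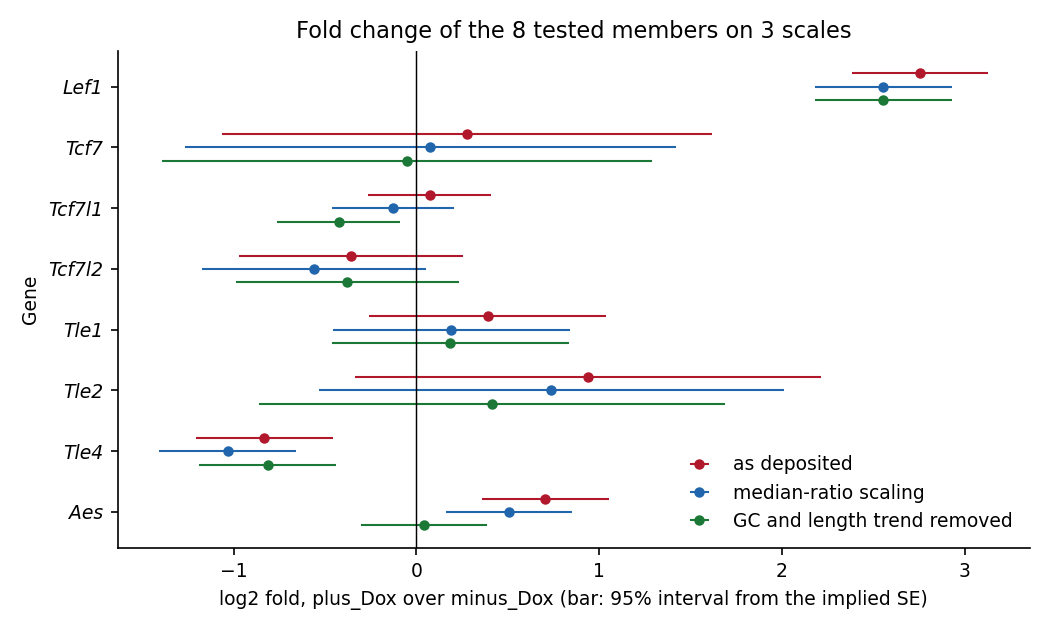
Deposited log2 fold of plus_Dox over minus_Dox for the 8 tested members, with 95% intervals from the implied SE, beside the values after median scaling and after removal of the trend on transcript composition. Lef1 and Tle4 keep their side of 0 in all 3 versions, whereas Aes moves to 0.04 once the trend is removed.

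The table's folds moved with transcript composition, and this touched the members unequally. A trend of log2 fold on GC content and length of the transcript was fitted over 11596 rows and subtracted. The fit had a constant term, so the subtracted values also hold the general shift of the folds. The fitted trend was 0.66 for Aes, whose transcript has 60.0% GC and 1411 nt, and -0.02 for Tle4, whose transcript has 47.5% GC and 4545 nt. After the subtraction, Lef1 was still called (log2 fold 2.55, q = 2.9e-37), and so was Tle4 (log2 fold -0.81, q = 0.0023), against 2.20% of 16658 rows. Aes was no longer called (log2 fold 0.04). Tcf7l1, with 59.3% GC, stood at -0.43 after the subtraction (q = 0.27), so the sign of its small fold turned. That sign also turned under the constant shift described below (-0.13). The median of the 8 tested members was -0.003 after the subtraction, beside -0.02 over all rows. A constant shift was also tried: over tested rows that reached 1 FPKM the median log2 fold was 0.20, and relative to it Lef1 stood at 2.55, Tle4 at -1.03 (q = 6.3e-06) and Aes at 0.51 (q = 0.045), all 3 still called, against 9.56% of rows. That shift turned the split of calls over the table, with 618 higher and 1087 lower in plus_Dox, against 1626 higher and 584 lower as deposited.

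How large a change each member could have shown differed widely. In the deposited table the smallest size of the test statistic among calls was 2.74, which with a member's own SE gives the fold that it needed. This was 1.38-fold for Tcf7l1, 1.40-fold for Aes, 1.44-fold for both Lef1 and Tle4, 1.81-fold for Tcf7l2 and 1.88-fold for Tle1. It was 3.44-fold for Tle2 and 3.67-fold for Tcf7. The SE of Tcf7 was larger than that of 95.3% of the 3418 rows of like level, whose median SE was 0.21. Tcf7 lies at chr11:51763383-52099681 (mm9), a locus that 18 rows of the table share, and of its 17 companions 11 were tested and none was called. Their SE ran from 0.43 to 51.4, with a median of 4.63. Over the whole table, rows of 5 FPKM or more that lay alone at their locus were called in 24.1% of 5111 cases, at a median SE of 0.20. Rows that shared a locus with at least 5 others were called in 4.26% of 235 cases, at a median SE of 0.52. A change of Tcf7 of the size seen for Aes or Tle4 was therefore not detectable in the authors' test.

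**Figure D4:**
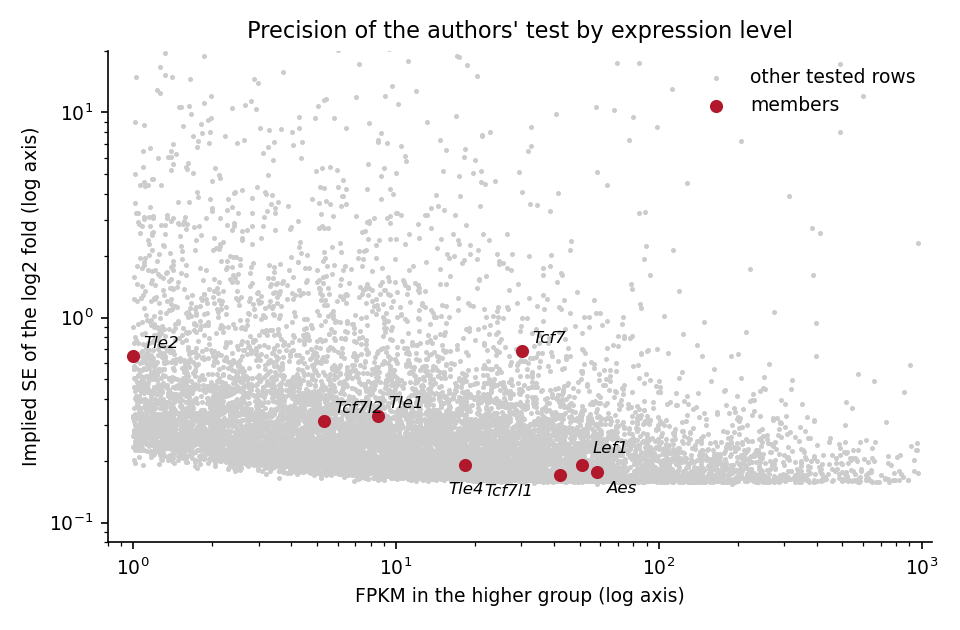
Implied SE of the log2 fold against FPKM in the higher group for tested rows of the table (grey) and the 8 tested members, both axes logarithmic, with rows of very low level or very high SE outside the drawn range. Tcf7 lies above the rows of like level (SE 0.68, against a median of 0.21), and the 3 called members lie at 0.18 to 0.19, slightly under the median of 0.20 to 0.22 for rows of their level.

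The promoters were read for the core of the Tcf/Lef motif, because Lef1 binds DNA through that motif. RefSeq (GRCm38.p6) gave 14 promoters of 8 members, taken as the 250 bases before each start, with no entry matched for Aes. Other starts of these genes, Tcf7 among them, were not searched. The motif CTTTGAT was found on either strand in 0 of the 14, and in 3.21% of 32851 promoters of the same length. The shorter core CTTTG, which the longer motif contains, was found in 7 of 14 promoters of 3 members (Lef1, Tcf7l1 and Tcf7l2), and in 48.6% of all promoters. The 2 promoters shown belong to the members with the largest called rise and the called fall, Lef1 (chr3:131110047-131110296, plus strand) and Tle4 (chr19:14598184-14598433, minus strand), with capitals for CTTTG or its complement CAAAG.
Lef1 promoter: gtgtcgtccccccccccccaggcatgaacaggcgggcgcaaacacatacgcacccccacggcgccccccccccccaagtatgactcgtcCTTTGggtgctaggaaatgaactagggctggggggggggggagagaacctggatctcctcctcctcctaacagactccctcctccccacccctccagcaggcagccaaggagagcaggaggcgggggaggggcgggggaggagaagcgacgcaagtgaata
Tle4 promoter: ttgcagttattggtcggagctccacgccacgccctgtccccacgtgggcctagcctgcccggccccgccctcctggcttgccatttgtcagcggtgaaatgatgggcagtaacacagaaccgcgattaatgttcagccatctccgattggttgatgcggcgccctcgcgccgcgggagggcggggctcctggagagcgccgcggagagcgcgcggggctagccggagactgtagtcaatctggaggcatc
The Lef1 stretch holds the core at position -161 relative to the start, and the Tle4 stretch does not hold these letters. With the core in 48.6% of all promoters, this difference is not read as a result. Another Lef1 promoter (chr3:131110073-131110322) overlaps the one shown and holds the same core, so the 7 of 14 count it more than once. A match is a description of the sequence and not a binding site.

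The genes whose folds lay nearest to those of the called members were found over the 2 group values, by the absolute difference of deposited log2 fold among rows that reached 5 FPKM. Nearest to Lef1 were Nodal, a TGF-beta ligand, with 37.0 FPKM in plus_Dox and 5.14 FPKM in minus_Dox, and its coreceptor Tdgf1, with 190.5 FPKM in plus_Dox and 31.3 FPKM in minus_Dox. Their log2 folds in the authors' deposited table were 2.85 and 2.61, a difference from Lef1 of 0.10 and 0.15. The third was AC132082.1, with 32.5 FPKM in plus_Dox and 5.51 FPKM in minus_Dox, whose SE of 8.48 left it uncalled (q = 0.96). Nearest to Tle4 were Trim71, an RNA-binding ubiquitin ligase, with 4.13 FPKM in plus_Dox and 7.35 FPKM in minus_Dox, then Rsbn1l and 2810474O19Rik. With the composition trend removed Trim71 was still called (-0.94), whereas Rsbn1l (-0.58, q = 0.069) and 2810474O19Rik (-0.43, q = 0.44) were not. Nearest to Aes were Slc38a10, Sertad1 and Wdr18, of which Slc38a10 was not called (q = 0.081). Sertad1 and Wdr18 were called in the authors' deposited table but not with the trend removed (Sertad1 0.03, Wdr18 0.39 with q = 0.28). With only 2 group values a like fold carries no more than that one number.

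Partners of the members in the nucleus were read from lists. The first held 24 genes for beta-catenin, its cofactors and the chromatin proteins that Tcf and Groucho proteins work with. Of these 23 were tested, 1 rose, 1 fell and 21 did not pass (8.70% called, beside 12.2% of all tested rows). Their median log2 fold was -0.04, beside 0.20 over all tested rows with a finite fold. The gene that rose was Cby1, which binds beta-catenin and opposes it, with 35.1 FPKM in plus_Dox and 20.2 FPKM in minus_Dox (log2 fold 0.79 with an SE of 0.17 and q = 0.00024, by the authors' deposited table). The gene that fell was Tbl1xr1, a subunit of the NCoR corepressor complex, with 4.23 FPKM in plus_Dox and 6.09 FPKM in minus_Dox (log2 fold -0.53 with an SE of 0.17 and q = 0.024, by the authors' deposited table). Neither was called once the composition trend was removed (0.19 and -0.11). The most abundant were Ctnnb1, which encodes beta-catenin, with 279 FPKM in plus_Dox and 293 FPKM in minus_Dox (log2 fold -0.07, SE 0.40), and the deacetylase gene Hdac1, with 171 FPKM in plus_Dox and 176 FPKM in minus_Dox (log2 fold -0.04, SE 0.19).

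Of 28 other factors known to recruit Groucho proteins, 24 were tested, 4 rose, 0 fell and 20 did not pass in the authors' Cuffdiff test. This is 16.7% called, beside 12.2% of all tested rows (8.98% higher and 3.22% lower in plus_Dox). In that test 7 had an unadjusted p under 0.05, and the same share over all tested rows was not computed. The median log2 fold of the list was 0.29, beside 0.20 over all tested rows with a finite fold. With the composition trend removed the list median was -0.21, beside -0.02 over all rows. Gsc, a homeobox repressor of the organizer, had 5.64 FPKM in plus_Dox and 1.47 FPKM in minus_Dox (log2 fold 1.94 with an SE of 0.24 and q = 2.4e-13, by the authors' deposited table). Hes1, a Notch-responsive repressor, had 36.7 FPKM in plus_Dox and 14.8 FPKM in minus_Dox (log2 fold 1.31 with an SE of 0.24 and q = 4.9e-06, by the authors' deposited table). Both were still called after the composition trend was removed (1.24 and 0.95). Hes6, a relative that opposes Hes1, had 50.4 FPKM in plus_Dox and 29.3 FPKM in minus_Dox (log2 fold 0.78, SE 0.18, q = 0.00036) and was not called after it (0.11). The fourth, Runx3, was under 1 FPKM in both groups (0.591 FPKM in plus_Dox and 0.202 FPKM in minus_Dox) and was named after its values were seen. After the trend was removed Runx3 was not called (1.20, q = 0.090), and Ripply1, not called in the deposited table, then was, at -1.65.

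Of 23 genes known as Wnt targets 22 were tested, of which 12 rose, 1 fell and 9 did not pass. This is 59.1% called, beside 12.2% of all tested rows. The median log2 fold was 1.26, beside 0.20 over all tested rows with a finite fold. This list overlaps genes already known to move in these libraries and is no independent evidence of their direction. The largest folds at 1 FPKM or more were those of Sp5, a direct target and transcriptional repressor, with 1.48 FPKM in plus_Dox and 0.0615 FPKM in minus_Dox (log2 fold 4.59, SE 0.41), and of the mesoderm gene T, with 4.76 FPKM in plus_Dox and 0.381 FPKM in minus_Dox (log2 fold 3.64, SE 0.42). Wnt3, a ligand of the primitive streak, Tnfrsf19, a receptor, and Tdgf1 followed at log2 folds of 3.11, 2.88 and 2.61 in the authors' deposited table. The one that fell was Fzd7, a Wnt receptor of ES cells, with 30.3 FPKM in plus_Dox and 44.0 FPKM in minus_Dox (log2 fold -0.54 with an SE of 0.18 and q = 0.027, by the authors' deposited table). All 13 calls were also made after the composition trend was removed. Beside this list, in which 13 of 22 tested genes were called, the members other than Lef1 had 2 of 7, and the difference between the lists was not tested.

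**Figure D5:**
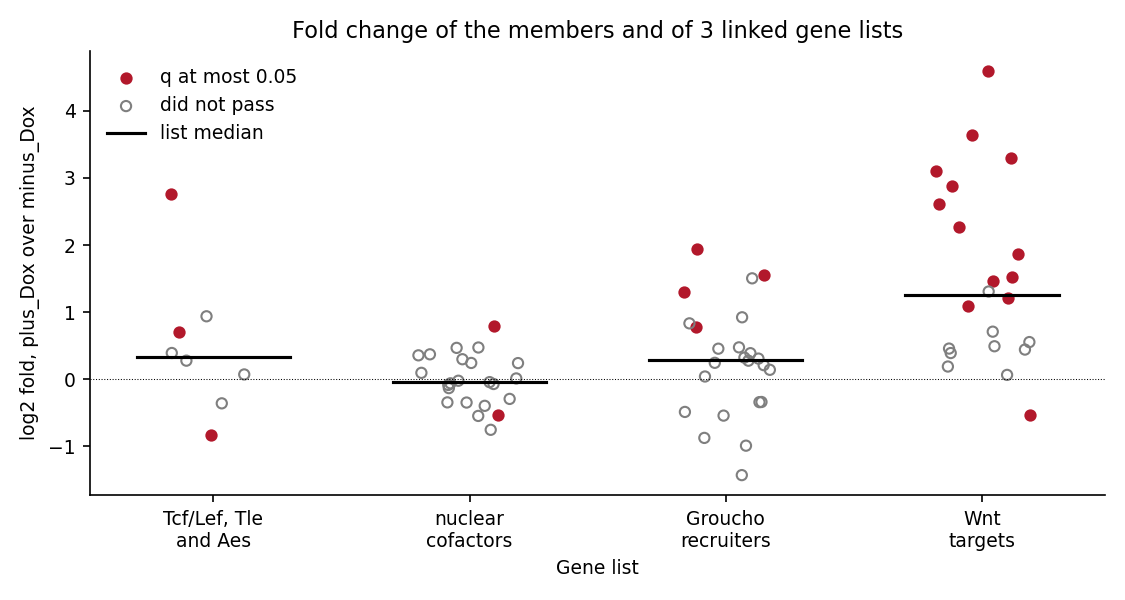
Deposited log2 fold of plus_Dox over minus_Dox for the tested members and for the tested genes of 3 lists (nuclear cofactors, other factors that recruit Groucho proteins, Wnt targets), with called genes marked. The Wnt targets have a median of 1.26, against 0.33 for the members, 0.29 for the recruiters and -0.04 for the nuclear cofactors.

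The cell types that the samples could hold were checked by their markers, since in bulk samples fewer cells of a type and less RNA per cell cannot be told apart. The ES and epiblast gene Pou5f1 had 1510 FPKM in plus_Dox and 820 FPKM in minus_Dox (q = 0.055 in the authors' deposited table), and Otx2 had 100.0 FPKM in plus_Dox and 108 FPKM in minus_Dox. Of 7 tested genes of that list Nanog rose, Sox2 and Pou3f1 fell, and 4 did not pass (42.9% called, beside 12.2% of all tested rows). Dnmt3b is marked as too high in depth to test. Summed over 10 fibroblast genes, the level was 37.6 FPKM in plus_Dox and 30.1 FPKM in minus_Dox. In the authors' Cuffdiff test 0 of 8 tested were called, beside 12.2% of all tested rows. Of the 8, 2 had an unadjusted p under 0.05, a share that was not computed over all rows. The most abundant was Thy1, with 16.6 FPKM in plus_Dox and 11.9 FPKM in minus_Dox (q = 0.055 in that test). Fn1, whose test failed, had 13.0 FPKM in plus_Dox and 10.8 FPKM in minus_Dox. Thy1 and Fn1 made up most of the fibroblast sum in both groups, and the next highest value was 2.12 FPKM (Dcn in minus_Dox). The lowest was Lum, under 0.1 FPKM in both groups. The blood and lymphoid markers Ptprc, Cd3e and Cd4, of cells in which Lef1 and Tcf7 are well known, were under 0.1 FPKM in both groups. Gata1 had 1.41 FPKM in plus_Dox and 1.32 FPKM in minus_Dox. Tal1 had 0.291 FPKM in plus_Dox and 0.438 FPKM in minus_Dox, and neither of these was called. The whole list of 6 summed to 24.0 FPKM in plus_Dox and 20.3 FPKM in minus_Dox, of which 22.2 FPKM in plus_Dox and 18.4 FPKM in minus_Dox came from a row that joins Rag1 with another gene. Summed over 7 genes of primitive endoderm, the level was 183 FPKM in plus_Dox and 172 FPKM in minus_Dox. Of 6 tested genes 2, Sox17 and Amn, rose (33.3% called, beside 12.2% of all tested rows). Neither was called once the composition trend was removed, when Gata6 was called lower in plus_Dox (-0.73, q = 0.021). The part of these cell types in the changes of Lef1, Tle4 and Aes was not tested.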

How the data were processed

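Per the labels' protocols, mRNA was selected with oligo-dT, broken into fragments and copied into cDNA from random primers. Per the submitters' processing notes, the tools were Cufflinks 2.0.2 and Cuffdiff, TopHat2 2.0.8 and Bowtie, and Picard, on build mm9, with no roles stated. The sources used here do not give the annotation. Per the file headers, the deposited table holds an FPKM value for each of 2 groups, computed by the authors over 3 libraries each, with 0 columns of single libraries. The authors' log2 fold of plus_Dox over minus_Dox stands beside them. The deposited test statistic is a score whose sign is opposite to that of the fold in all 17830 tested rows with a finite fold, and only its size was used. The deposited p-value and q-value are those of the authors' test, adjusted over all 18114 tested rows. Depth is unknown, so no counting interval was computed. Genes that overlap others or share sequence with them are uncertain, since the division of such reads is not given.

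The 9 members, the lists and the tests were chosen with earlier results of these data known. List genes in joined rows (Ctbp2, Six3, Rag1) were counted by that row. Some genes are not reported here and are in no list. Groups were taken from the sample titles. Since the table holds group values, the authors' test was used as deposited, at a q of at most 0.05 with no minimum fold. Genes were named by a rule: all members, up to 5 rises and 5 falls of each list at 1 FPKM or more with its 2 most abundant genes, the 3 nearest folds to each called member, and Hprt. The trend was fitted on cubic splines with 6 knots each of GC content and log2 length (longest basic transcript, GENCODE vM21) at 1 FPKM or more, after which p-values were recomputed from the unchanged SE and adjusted by Benjamini-Hochberg. Of the tested rows 92.0% had both properties. Median scaling subtracted the median log2 fold of rows at 1 FPKM or more. Other alternatives were q thresholds of 0.01 and 0.1, 2-fold, minima of 1 and 5 FPKM, and pseudocounts of 1 and 0.1. The recomputation was run on simulated data with a bias linear in the same GC content and log2 length. The changed genes there were drawn without regard to composition. That simulation therefore cannot show whether a real change of short, GC-rich genes such as Aes would be subtracted. Sequences came from GENCODE vM21 (GRCm38) and RefSeq (GRCm38.p6), whereas gene positions are those of the table (mm9), with no conversion. Python 3.11.15, pandas 2.3.3, NumPy 2.4.6, SciPy 1.17.1, scikit-learn 1.9.0 and matplotlib 3.10.9 were used.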

Additional observations from a re-analysis of the deposited data

How the results depend on the processing

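Of the 9 members 3 were called, and this count was 1 (Lef1) with a minimum of 2-fold. Removing the composition trend left 2 calls, since Aes then stood at 0.04. Small uncalled folds changed sign in 2 members: Tcf7 stood at -0.049 with the trend removed, and Tcf7l1 at -0.13 after median scaling and at -0.43 with the trend removed. Lef1, Tle4, Tcf7l2, Tle1 and Tle2 kept their direction and their side of the threshold under both scalings, and their direction with both pseudocounts, where no test was run. Over all tested rows the 2210 calls became 1208 at a q of 0.01, 491 with at least 2-fold and 367 (207 higher and 160 lower in plus_Dox) with the trend removed. The 2 calls among the nuclear cofactors became 1 at a q of 0.01 and 0 with at least 2-fold. After median scaling they were 5 of 23 (1 higher, 4 lower), beside 9.56% of all rows (618 higher, 1087 lower). With the trend removed they were 0, beside 2.20% of all rows. There 1 of 22 had an unadjusted p under 0.05, and that share over all rows was not computed. The 13 calls among the 22 tested Wnt targets became 3 with at least 5 FPKM, a level that only 5 of them reached. Over all tested rows at that level 18.9% were called. Leaving the gene with the largest tested fold out of each family sum moved the plus_Dox share of Tcf7l1 to 55.1% without Lef1. The share of Aes became 54.8% without Tle2. Since Tle2 made up 0.934% of its sum in plus_Dox, leaving it out could hardly move the Aes share, and its own fold did not pass. The Aes share was not recomputed without Tle3 or Tle4.

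No paired analysis was possible because the table holds only group values, although the groups share the numbers 1 and 3. Leaving out each library was not run for the same reason, so whether a call rests on 1 library is unknown.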

Other observations

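Aes and Tle2 are neighbours on chromosome 10, 6248 bp apart in the coordinates of the table (mm9), and Tle6, a shorter Groucho relative known from the oocyte and early embryo, lies 24540 bp from Aes. Tle6 had 3.61 FPKM in plus_Dox and 1.16 FPKM in minus_Dox (log2 fold 1.63 with an SE of 0.52 and q = 0.020, by the authors' deposited table). With the composition trend removed Tle6 stood at 1.12 and was not called (q = 0.44). Of the 13 tested rows within 100 kb of Aes, 11 had a positive fold, 2 had a negative one and 1, Tle6, was called. Over all tested rows 12.2% were called, and 65.1% of those with a finite fold were positive. The median log2 fold of the 13 was 0.43, beside 0.20 over all rows with a finite fold. Those that reached 5 FPKM, Ncln, Gna11, Sirt6 and Ankrd24, stood at 0.01, -0.16, 0.04 and 0.05 with the composition trend removed, and none was called.

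Around Lef1, 4 rows within 100 kb were tested. Hadh, a mitochondrial fatty acid oxidation gene, had 67.3 FPKM in plus_Dox and 65.8 FPKM in minus_Dox (log2 fold 0.03). Sgms2, a sphingomyelin synthase gene, was called lower in plus_Dox at a very low level, with 0.118 FPKM in plus_Dox and 0.245 FPKM in minus_Dox (log2 fold -1.06 with an SE of 0.35 and q = 0.026, by the authors' deposited table). With the composition trend removed Sgms2 stood at -0.86 and was not called (q = 0.28). These neighbours were named after their values were seen.

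The symbol Tcf3 in the table belongs to the E2A gene on chromosome 10, a basic helix-loop-helix factor, and not to Tcf7l1, which formerly carried that name. Its row had 88.2 FPKM in plus_Dox and 59.4 FPKM in minus_Dox (log2 fold 0.57 with an SE of 0.19 and q = 0.032, by the authors' deposited table). With the composition trend removed that fold was 0.04.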
